A study of Homo sapiens with 4 samples.

Results

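The SRSF and HNRNP genes encode the best known families of RNA-binding splicing regulators, and their transcript levels were compared between DU145 cells labelled SPOP-F133V and wild-type DU145 cells. Members were taken as every row whose Ensembl gene ID maps to a protein-coding symbol made of SRSF and a number, or starting with HNRNP. This gave 39 of the 60614 genes in the tables, 12 SRSF and 27 HNRNP genes. Reads were sufficient to test all 12 SRSF genes and 22 of the HNRNP genes, 34 of the 17539 genes tested in all.

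DU145 is an established human prostate cancer cell line, and SPOP recruits proteins to a CUL3 ubiquitin ligase for degradation. The design is a single contrast of 2 SPOP-F133V libraries with 2 wild-type libraries, all from cells grown in one medium with no treatment named. How the F133V form was introduced, and whether the cells are 1 clone or a pool, is not stated in the labels. Nor do they say that the replicates were separate cultures, so every p-value measures at most the spread between these libraries, which may be technical.

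SR proteins (the SRSF genes) carry RNA recognition motifs and a tail rich in arginine and serine, and most bind exonic enhancers and promote inclusion of the exon. Heterogeneous nuclear ribonucleoproteins (the HNRNP genes) coat nascent transcripts, and several repress exons that SR proteins promote. Many members of both families limit their own level by splicing in a poison exon, whose premature stop codon sends the transcript to nonsense-mediated decay.

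The counts used here are per gene, so a transcript with a poison exon and a productive one add to the same value and were not separated. The following stretches show what such exons look like in SRSF3, SRSF6 and SRSF7, whose counts were lower in SPOP-F133V, and in SRSF9, whose count was not. Each runs from the first base of an exon in a transcript that GENCODE release 29 (GRCh38) annotates for nonsense-mediated decay to its premature stop codon, which is in capitals.
SRSF3 exon, chr6:36599821-36599854, plus strand: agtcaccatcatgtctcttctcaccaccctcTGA
SRSF6 exon, chr20:43459153-43459304, plus strand: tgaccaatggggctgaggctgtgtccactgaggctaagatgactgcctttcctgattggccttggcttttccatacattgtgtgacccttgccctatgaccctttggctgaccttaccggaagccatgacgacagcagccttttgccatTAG
SRSF7 exon, chr2:38749319-38749346, minus strand: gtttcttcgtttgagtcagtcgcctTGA
SRSF9 exon, chr12:120464812-120464822, minus strand: aaaactatTAG
The SRSF9 stretch is 11 bases long and the SRSF6 stretch 152. The annotation lists 6 nonsense-mediated decay transcripts for SRSF7, 9 for HNRNPU and none for HNRNPH3, and the counts of all 3 genes were lower in SPOP-F133V.

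The libraries held 36149516 and 35173245 reads in genes for SPOP-F133V and 39642063 and 36102260 for wild-type. Tallies kept apart from genes are given as shares of gene counts and tallies together. The tally of several alignments was 15.1% and 16.6% for SPOP-F133V and 14.6% and 13.6% for wild-type. Whether it counts reads or alignments was not tested. The tally over no gene was 6.12% and 6.25% against 6.53% and 6.52%, so both tallies separated the genotypes. The replicates of SPOP-F133V differed from each other more than those of wild-type, at a chi-square per degree of freedom of 8.3 against 1.69 over the tested genes. All 4 epithelial markers (EPCAM, KRT8, KRT18, CDH1) were abundant, with sums of 64122 and 66266 reads in SPOP-F133V and 56401 and 51200 in wild-type, and all 4 were called higher in SPOP-F133V. Of 5 luminal prostate markers, KLK2 and KLK3 were at 0 in all libraries, and the sums of the list were 755 and 648 in SPOP-F133V and 994 and 885 in wild-type. Of 4 hematopoietic markers CD3E was at 0, with sums of 76 and 89 against 52 and 66, and of 5 fibroblast and endothelial markers DCN was at 0, with sums of 293 and 307 against 254 and 241. In bulk RNA, fewer cells of a type and less RNA per cell cannot be told apart. The part of these tally and marker differences in the results below was not tested.

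In SPOP-F133V, 25 of the 34 tested members were lower and 0 were higher, at a Benjamini-Hochberg (BH) adjusted p under 0.05 in edgeR's quasi-likelihood test over all genes. Of all tested genes, 54.8% were called, 27.2% higher and 27.6% lower. DESeq2 also called 0 members higher, and 24 lower, where of all 17539 tested genes it called 3189 higher and 4088 lower. At an unadjusted p under 0.05 in edgeR 1 member, HNRNPC, was higher and 26 were lower. That last count was not taken over all genes. Under upper-quartile scaling, which shifted the median of all genes to 0.13 and the calls over all genes from 4763 higher and 4841 lower to 6462 and 3831, 21 members were lower and 4 higher (SRSF4, SRSF9, HNRNPC and HNRNPL). Among SRSF genes 9 of 12 were lower and 3 did not pass, and among HNRNP genes 16 of 22 were lower and 6 did not pass. The median log2 fold change was -0.58 for the SRSF genes and -0.40 for the HNRNP genes, against 0.02 for all tested genes. As a share of the reads in genes, the SRSF genes together made up 0.130% and 0.129% for SPOP-F133V and 0.190% and 0.188% for wild-type. The HNRNP genes made up 0.718% and 0.701% against 0.859% and 0.846%. For both families each SPOP-F133V library was below each wild-type library. Gene by gene, the libraries of the 2 groups did not overlap for 30 of the 34 members, in either direction. The same held for 13678 of all 17539 tested genes, so a lack of overlap in the genes below is usual in these data.

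The members' transcripts are of low GC content, and in these libraries the fold change of all genes ran with transcript GC content. The median GC content of the longest transcript was 40.6% for the SRSF genes and 42.6% for the HNRNP genes, against 48.8% for all tested genes. The longest annotated transcript of any type was taken, and it need not be the one expressed in these cells. The GC and length adjustment and the levels per kilobase below rest on the same choice. With tested genes split into 10 bins of GC content, 77.2% of genes in the lowest bin were called lower, and 1.74% in the highest. The 4 lowest bins held 7, 10, 6 and 5 members, of which 6, 6, 5 and 5 were lower, beside 77.2%, 67.7%, 53.4% and 33.8% of all genes in the same bins. The members' share was near that of other genes of like GC content in the lowest 2 bins and above it in the next 2, on few genes a bin. Across the 34 members, GC content had a Pearson correlation of 0.26 (Spearman 0.21) with the log2 fold change and of 0.49 (Spearman 0.46) with the difference between the SPOP-F133V replicates, as descriptions over genes that share the same 4 libraries.

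**Figure D1:**
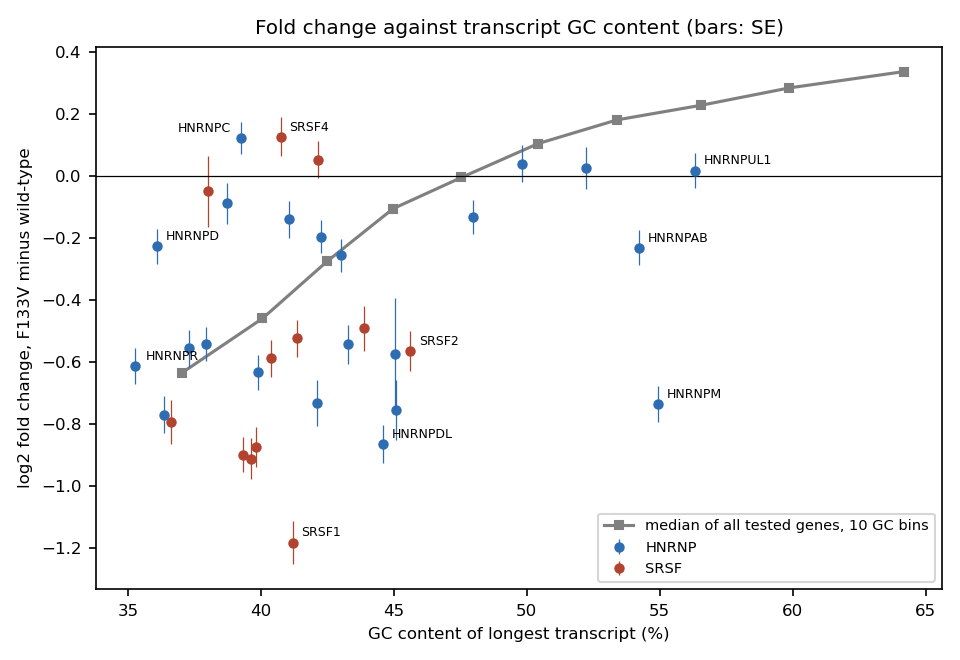
Log2 fold change (SPOP-F133V minus wild-type, bars are SE) of each tested member against the GC content of its longest transcript in percent, with the median of all tested genes in 10 GC bins as grey squares. SRSF1, HNRNPM and HNRNPDL lie far below the grey line, and HNRNPC, SRSF4 and HNRNPD lie above it.

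Each result is therefore given also from a fit with an offset for each library's smooth trend on GC content and transcript length. With the offset, the medians of all tested genes in the 10 GC bins ran from -0.002 to 0.034. Without it they ran from -0.64 to 0.34. Such an offset also takes away any real difference between the genotypes that follows GC content, so neither fit is the reference for the other. It was fitted to each library, so it also takes away differences between replicates that follow GC content or length. The SE and p-values of the adjusted fit leave that spread out. The biological coefficient of variation, a measure of the spread between replicates, was 4.64% without the offset and 2.46% with it. In the adjusted fit 20 members were lower, 11 were higher and 3 did not pass, where of all genes 52.2% were called, 27.6% higher and 24.5% lower. The SRSF genes had 9 lower and 3 higher, with a median of -0.21, and the HNRNP genes 11 lower and 8 higher, with a median of -0.08, against 0.02 for all genes. Across the 34 members, the adjusted log2 fold change had a Pearson correlation of -0.45 (Spearman -0.53) with GC content, opposite in sign to the 0.26 before adjustment and larger, so among the members the adjusted values run with GC content the other way. What this adds to the adjusted values and to the calls that turn was not tested. Called lower in both fits were 19 members, 9 of them SRSF genes, and 5 members, all HNRNP genes, turned from lower to higher. Of all 17539 tested genes, 2585 were called lower in both fits and 654 turned, in either direction.

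**Figure D2:**
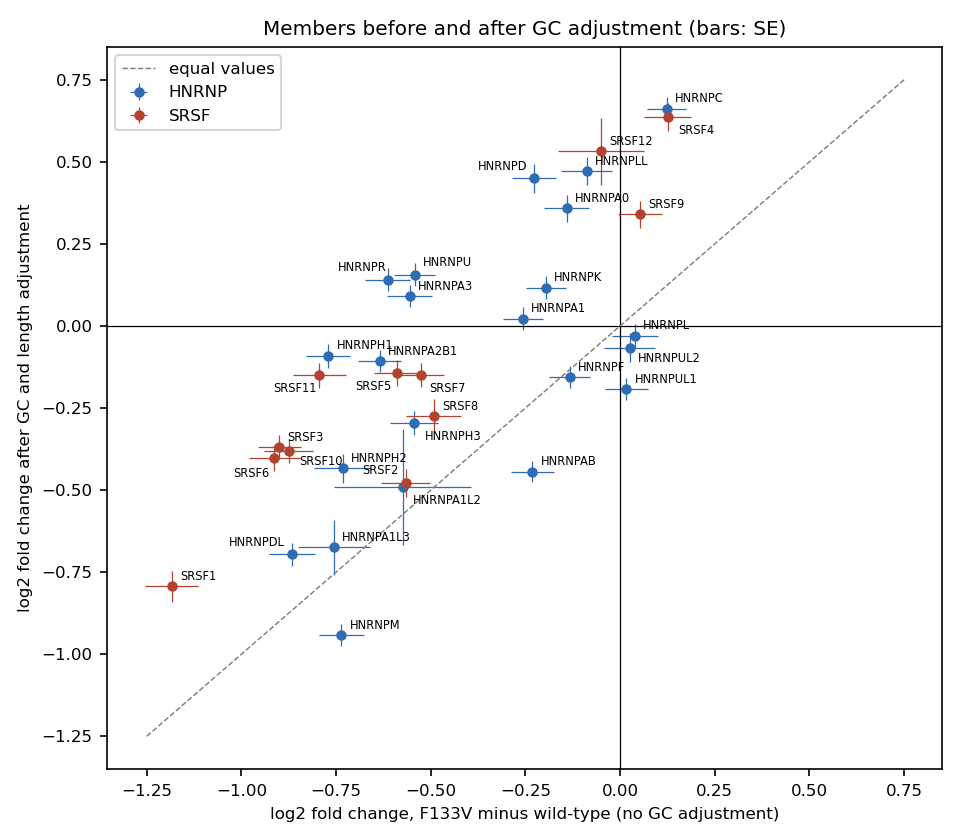
Log2 fold change of the 34 tested members without adjustment (x axis) and after the GC and length adjustment (y axis), with SE bars and a dashed line of equal values. Most points lie above the dashed line, and 19 members are called lower on both axes.

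SRSF1, an SR protein known for its part in splice site choice and as an oncoprotein when overexpressed, had the lowest ratio of all members without adjustment, and HNRNPM had the lowest with it. Its level, in CPM (read counts scaled to a common library size, with TMM), was 41.9 and 41.9 for SPOP-F133V and 91.0 and 99.6 for wild-type. Both SPOP-F133V values lay below both wild-type values, at 0.440 times the wild-type mean. The log2 fold change was -1.18 ± 0.07 (SE; edgeR BH-adjusted p = 1.35e-10) and -0.79 ± 0.05 after GC adjustment (edgeR BH-adjusted p = 2.59e-17). In GENCODE release 29, 57.4% of the 75-base windows in SRSF1 exons lie also in AC015813.2, a gene at 0 reads in all 4 libraries. Whether reads from those windows went to the tally of reads over more than 1 gene, which would leave the SRSF1 count to part of its exons, was not tested. That tally was 3.73% and 3.69% of gene counts and tallies together in SPOP-F133V and 3.50% and 3.52% in wild-type.

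SRSF3, one of the smallest SR proteins and a factor in mRNA export as well as splicing, stood at 202 and 200 CPM in SPOP-F133V and at 379 and 372 CPM in wild-type. The groups were wide apart next to the gap between replicates. The log2 fold change was -0.90 ± 0.06 (edgeR BH-adjusted p = 2.3e-10), and -0.37 ± 0.04 after GC adjustment. SRSF6, which binds exonic enhancers, had 73.1 and 67.0 CPM in SPOP-F133V and 136 and 128 CPM in wild-type. Its SPOP-F133V libraries were both below the wild-type ones, with a log2 fold change of -0.91 ± 0.07 (edgeR BH-adjusted p = 1.32e-09) and -0.40 ± 0.04 after adjustment. SRSF10, which acts as a repressor when dephosphorylated, had 83.5 and 76.9 CPM in SPOP-F133V and 146 and 148 CPM in wild-type. The groups did not overlap, and the log2 fold change was -0.87 ± 0.06 (edgeR BH-adjusted p = 1.41e-09) and -0.38 ± 0.04 after adjustment.

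SRSF2, a nuclear SR protein and a frequent mutation target in myeloid neoplasms, had 153 and 174 CPM in SPOP-F133V and 241 and 242 CPM in wild-type. The SPOP-F133V libraries were lower, and they differed from each other more than the wild-type libraries did. Its log2 fold change was -0.57 ± 0.06 (edgeR BH-adjusted p = 3.32e-07), and GC adjustment, which moved every other SRSF gene by more, gave -0.48 ± 0.04. Its exons overlap those of MFSD11, and the use of strand in counting is not known here. The other SRSF genes called lower were SRSF11 at -0.79 (-0.15 adjusted), SRSF5 at -0.59 (-0.14), SRSF7 at -0.52 (-0.15) and SRSF8 at -0.49 (-0.27). SRSF5 is the 1 gene of these that lost its call in a further fit, the adjusted one without wild-type replicate 1, at -0.10 (edgeR BH-adjusted p = 0.128).

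SRSF4, SRSF9 and SRSF12 did not pass without adjustment. SRSF9 had the highest level of the SRSF genes per kilobase of longest transcript, with a mean over the 4 libraries of 130.5 CPM per kb. Its libraries held 218 and 235 CPM in SPOP-F133V and 219 and 217 CPM in wild-type, so the groups overlapped, with a log2 fold change of 0.05 ± 0.06 (edgeR BH-adjusted p = 0.474). After adjustment it was called higher, at 0.34 ± 0.04. SRSF2, the second highest per kilobase, had 56.6 CPM per kb in SPOP-F133V and 83.7 in wild-type. SRSF4 gave 0.13 without adjustment (edgeR BH-adjusted p = 0.0958) and 0.64 with it, and SRSF12, of low level, gave -0.05 (edgeR BH-adjusted p = 0.734) and 0.53. The spread between the 2 fits in these 3 genes was larger than any of their standard errors.

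**Figure D3:**
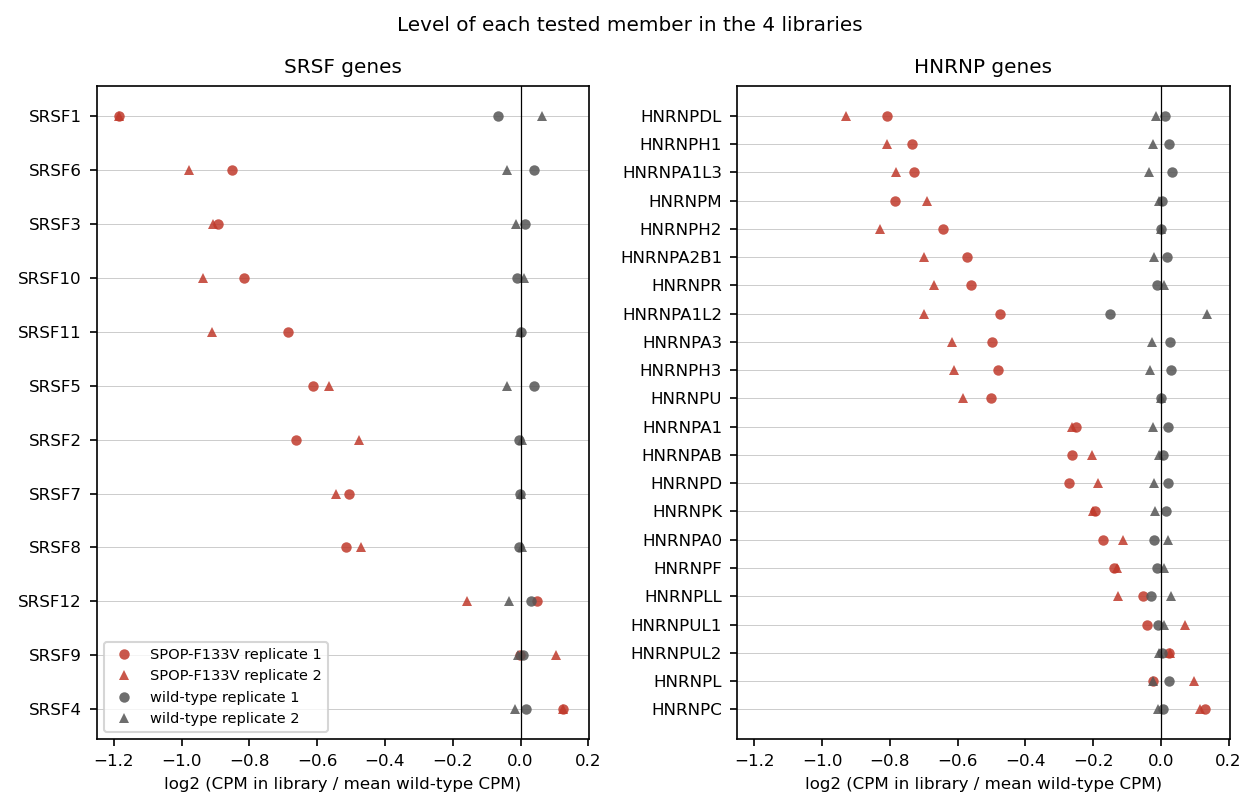
Log2 ratio of each library's CPM to the mean wild-type CPM for every tested member (red, SPOP-F133V; grey, wild-type; circles, replicate 1; triangles, replicate 2). The SPOP-F133V libraries of SRSF1 lie at the left end of the SRSF genes and those of HNRNPDL at the left end of the HNRNP genes, while the groups of SRSF9, SRSF12, HNRNPL and HNRNPUL1 overlap.

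Among the HNRNP genes, HNRNPDL, an AU-rich element binding protein, had the largest fall without adjustment (HNRNPM had it with adjustment), with 137 and 126 CPM in SPOP-F133V and 242 and 237 CPM in wild-type. Both SPOP-F133V libraries were below the wild-type ones. The log2 fold change was -0.87 ± 0.06 (edgeR BH-adjusted p = 9.37e-10) and -0.70 ± 0.03 after adjustment. HNRNPM, which binds GU-rich sequences and represses exons, had 162 and 174 CPM in SPOP-F133V and 281 and 279 CPM in wild-type. The gap between the groups was far larger than that within them. HNRNPM is GC-rich for a member, at 55.0% GC, and here adjustment made the fold change larger, from -0.74 ± 0.06 (edgeR BH-adjusted p = 3.72e-09) to -0.94 ± 0.03 (edgeR BH-adjusted p = 3.75e-24).

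HNRNPH1, which binds runs of G, had 185 and 176 CPM in SPOP-F133V and 313 and 303 CPM in wild-type. The SPOP-F133V libraries were both lower, but the log2 fold change of -0.77 ± 0.06 (edgeR BH-adjusted p = 1.9e-09) stood at -0.09 ± 0.04 after adjustment (edgeR BH-adjusted p = 0.0355). That adjusted call was lost without SPOP-F133V replicate 1 (-0.07) and without wild-type replicate 1 (-0.05). HNRNPA1L3, a copy related to HNRNPA1, had 8.20 and 7.91 CPM in SPOP-F133V and 13.9 and 13.3 CPM in wild-type. Its groups did not overlap, with -0.76 ± 0.10 (edgeR BH-adjusted p = 1.29e-06) and -0.67 ± 0.08 after adjustment. Of its 75-base windows 41.3% are found in other genes, mainly HNRNPA1, so its count is uncertain, as is that of HNRNPA1L2 (44.2%). HNRNPA1L2 gave -0.57 (-0.49 adjusted), and its call was lost in DESeq2 (-0.59, BH-adjusted p = 0.0934). Its adjusted call was lost without SPOP-F133V replicate 2 (-0.42, edgeR BH-adjusted p = 0.0906) and when wild-type replicate 2 was left out, at -0.33 (edgeR BH-adjusted p = 0.229).

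Also lower in both fits were HNRNPH2 at -0.73 (-0.43 adjusted), HNRNPA2B1, a reader of RNA sorting signals, at -0.63 (-0.11), HNRNPH3 at -0.54 (-0.30), HNRNPAB at -0.23 (-0.44) and HNRNPF at -0.13 (-0.16). The adjusted call of HNRNPA2B1 was lost when wild-type replicate 1 was left out, at -0.078 (edgeR BH-adjusted p = 0.199). HNRNPA1, the classical antagonist of SRSF1 at splice sites, was lower without adjustment at -0.26 (edgeR BH-adjusted p = 0.000411) and did not pass with it, at 0.02 (edgeR BH-adjusted p = 0.607). Without wild-type replicate 1, HNRNPA1, HNRNPAB, HNRNPD, HNRNPK and HNRNPF lost their calls in the unadjusted fit, and without wild-type replicate 2 HNRNPA1L2, HNRNPAB, HNRNPD, HNRNPK and HNRNPF did.

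The 5 HNRNP genes that turned from lower to higher were HNRNPR, HNRNPA3, HNRNPU, HNRNPD and HNRNPK. HNRNPD, also known as AUF1, which promotes decay of mRNAs with AU-rich elements, had 274 and 290 CPM in SPOP-F133V and 335 and 325 CPM in wild-type. Its SPOP-F133V libraries were lower, and its log2 fold change moved from -0.23 ± 0.06 (edgeR BH-adjusted p = 0.00219) to 0.45 ± 0.04 (edgeR BH-adjusted p = 4.34e-11). HNRNPU, a scaffold attachment factor, had 576 and 544 CPM in SPOP-F133V and 815 and 816 CPM in wild-type. The groups did not overlap, yet the adjusted value of 0.16 was opposite in sign to the unadjusted -0.54. HNRNPR had 211 and 196 CPM in SPOP-F133V and 309 and 314 CPM in wild-type, and its value went from -0.61 to 0.14. HNRNPK, which binds runs of C, had 738 and 735 CPM in SPOP-F133V and 854 and 834 CPM in wild-type, and its value went from -0.20 to 0.12. HNRNPA3 went from -0.56 to 0.09. The adjusted higher call was lost without SPOP-F133V replicate 2 for HNRNPA3 (0.058, edgeR BH-adjusted p = 0.13) and HNRNPK (0.061, edgeR BH-adjusted p = 0.0706). It was lost too without wild-type replicate 2 for HNRNPA3 (0.055, edgeR BH-adjusted p = 0.417) and HNRNPK (0.10, edgeR BH-adjusted p = 0.0861). For these genes the deposited counts are lower in SPOP-F133V, and the sign of the fold change depends on the adjustment.

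HNRNPC, a core protein of the particles that package nascent RNA, was the highest member per kilobase, at 286 CPM per kb in SPOP-F133V and 263 in wild-type. HNRNPK was next, at 250 and 287. HNRNPC had 1293 and 1282 CPM in SPOP-F133V and 1189 and 1176 CPM in wild-type. The SPOP-F133V libraries were both above the wild-type ones, at a log2 fold change of 0.12 ± 0.05 that did not pass (edgeR BH-adjusted p = 0.0508). After adjustment it was called higher, at 0.66 ± 0.04. HNRNPA0 (-0.14, adjusted 0.36) and HNRNPLL (-0.09, adjusted 0.47) did not pass without adjustment and were called higher with it, and HNRNPUL1 (0.02, adjusted -0.19) was called lower with it. HNRNPUL2 gave 0.03 and -0.07, and HNRNPL 0.04 and -0.03, and neither passed in either fit. Of the 75-base windows of HNRNPUL2, 44.9% lie also in the read-through gene HNRNPUL2-BSCL2, and 27.2% of those of HNRNPA1, 16.2% of HNRNPL and 14.8% of HNRNPA3 are found in other genes, so their counts are less certain.

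Members that were not tested were HNRNPCL1, with 1 read in wild-type replicate 1, and HNRNPCL2, HNRNPCL3, HNRNPCL4 and HNRNPUL2-BSCL2, with 0 in all 4 libraries. Pseudogene and non-coding rows named after members, 136 in all, held 273 and 239 reads in SPOP-F133V and 329 and 314 in wild-type, next to 306379 and 291921, and 415726 and 373099, in the members.

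Other genes of splicing were read from lists of known function. Of all tested genes 27.6% were lower and 27.2% higher, and 24.5% and 27.6% after adjustment. Median GC content was 42.2% for the kinases and import receptor and 46.4% for the SR-related proteins. It was 49.8% for hnRNP proteins with other symbols and 43.2% for other regulators, against 48.8% for all tested genes. Of SR protein kinases and the import receptor, 7 of 9 were lower and 2 higher, and after adjustment 3 were lower and 3 higher. PRPF4B, a kinase of the spliceosome, gave -0.90 (-0.24 adjusted), SRPK1, which phosphorylates SR proteins in the cytoplasm, -0.59 (-0.43), and CLK3, a nuclear SR kinase, was higher at 0.53 (0.69). Of SR-related proteins 17 of 23 were lower and 1 higher, and 18 were lower and 2 higher after adjustment, with BCLAF1 at -1.38 (-0.67), PNN at -1.14 (-0.71) and RBM25 at -0.98 (-0.38). Of 7 hnRNP proteins with other symbols 3 were lower and 1 higher, and 4 were lower after adjustment: SYNCRIP at -0.84 (-0.13) was lower in both fits, while RBMX went from -0.51 to 0.03. Of 35 other splicing regulators 22 were lower and 2 higher, and 15 and 8 after adjustment, with MBNL1 at -1.04 (-0.51), CELF2 at -0.85 (-0.44) and SFPQ at -0.77 (-0.80).

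In the core machinery, of 23 snRNP proteins 7 were lower and 1 higher, with a median of -0.07, and after adjustment 15 were lower and 6 higher, with a median of -0.14. SNRPE gave -0.26 (-0.30), while SNRPD1 went from -0.35 to 0.11 and SNRPA1 from -0.28 to 0.15. Of 15 branch point and splice acceptor factors 4 were lower and 2 higher, and 8 and 3 after adjustment. Without adjustment, the shares of snRNP proteins and of these factors called lower were near the 27.6% of all tested genes. Median GC content was 51.45% for snRNP proteins, 48.5% for these factors and 45.8% for the factors of nonsense-mediated decay below. SF3B1, the branch point factor often mutated in cancer, gave -0.59 (-0.13), SF1 gave -0.38 (-0.61), and DHX15 went from -0.69 to -0.02, which did not pass. Of 15 factors of nonsense-mediated decay, the pathway that removes poison exon transcripts, 7 were lower and 2 higher, and 6 and 1 after adjustment. Among them UPF2 gave -1.09 (-0.60), UPF3B -1.0 (-0.68) and SMG1, the kinase of UPF1, -0.86 (-0.50), and UPF1 itself 0.16 (-0.07).

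**Figure D4:**
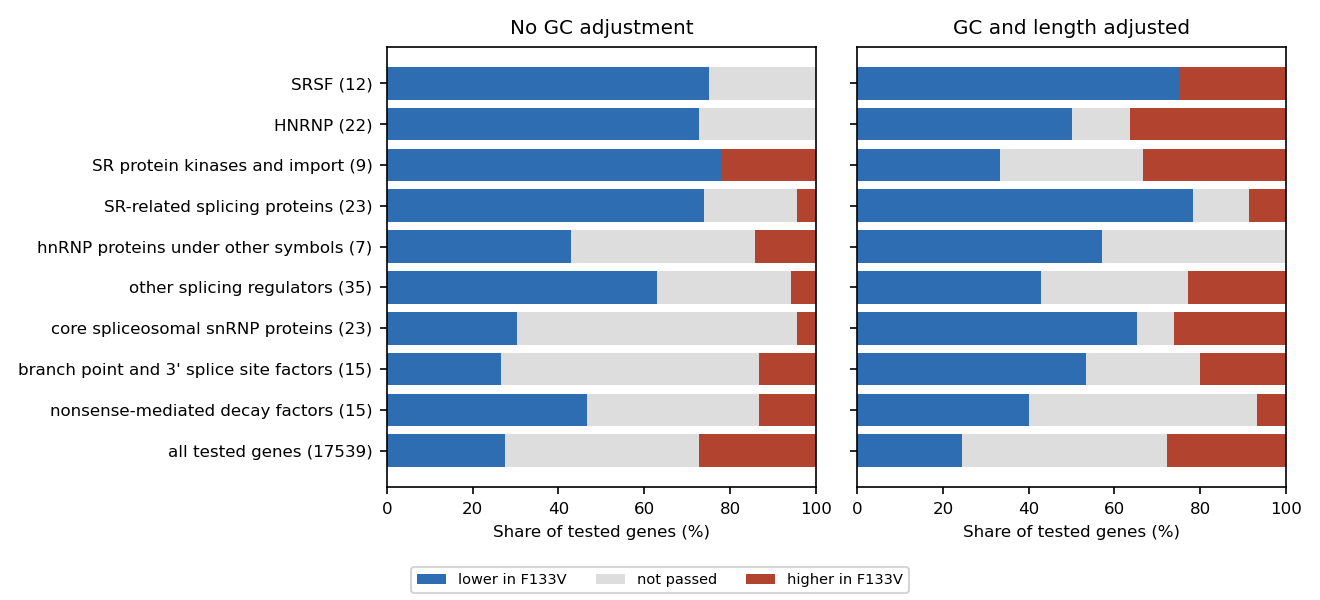
Share of tested genes of each list, in percent, called lower, called higher or not passed, without and with the GC and length adjustment, with the number tested in parentheses. In both panels 9 of 12 SRSF genes are lower, the SR-related proteins have 17 and 18 of 23 lower, and all tested genes are at 27.6% and 24.5% lower.

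Promoter windows (250 bases before to 50 after the start) were found in RefSeq GRCh38.p14 for 31 of the 34 tested members. Short motifs, chosen after the windows had been seen, were searched on both strands. The letters CTCGCGAG stood in a window of 5 of the 31 genes (HNRNPH3, HNRNPK, HNRNPUL1, SRSF10, SRSF4), 16.1% against 2.26% of 12091 tested genes with a window. The carriers did not move one way: SRSF10 and HNRNPH3 were lower in both fits and SRSF4 was higher after adjustment. These 3 windows are shown because they hold the same motif, in capitals, beside unlike fold changes.
SRSF10 promoter, chr1:23980278-23980577, minus strand: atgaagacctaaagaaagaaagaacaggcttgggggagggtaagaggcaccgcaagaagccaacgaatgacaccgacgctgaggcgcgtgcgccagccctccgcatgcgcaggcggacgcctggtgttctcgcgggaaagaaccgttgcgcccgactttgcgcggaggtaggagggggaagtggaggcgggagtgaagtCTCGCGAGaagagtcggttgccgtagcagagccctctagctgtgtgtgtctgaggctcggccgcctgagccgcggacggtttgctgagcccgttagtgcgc
HNRNPH3 promoter, chr10:68331814-68332113, plus strand: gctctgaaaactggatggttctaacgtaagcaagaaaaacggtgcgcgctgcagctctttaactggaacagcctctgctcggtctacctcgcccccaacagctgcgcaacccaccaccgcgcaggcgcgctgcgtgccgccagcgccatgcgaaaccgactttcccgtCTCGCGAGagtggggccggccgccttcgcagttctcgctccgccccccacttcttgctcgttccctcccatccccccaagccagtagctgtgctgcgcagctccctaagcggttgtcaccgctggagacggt
SRSF4 promoter, chr1:29181851-29182150, minus strand: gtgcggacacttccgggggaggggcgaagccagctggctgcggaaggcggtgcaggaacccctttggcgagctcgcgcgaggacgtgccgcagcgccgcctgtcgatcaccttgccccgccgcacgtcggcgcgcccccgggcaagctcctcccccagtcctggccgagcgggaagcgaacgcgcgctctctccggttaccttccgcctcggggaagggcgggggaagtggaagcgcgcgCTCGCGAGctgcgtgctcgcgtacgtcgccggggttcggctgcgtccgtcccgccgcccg
CCAAT stood in 61.3% of member genes against 42.0% of tested genes, GGGCGG in 71.0% against 75.8%, CACGTG in 22.6% against 12.1%, TATAAA in 19.4% against 8.62% and CCGGAAG in 16.1% against 21.1%. A match is a description of these letters and not a binding site.

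Over 16 ways of processing, 13 members were called lower in each: SRSF1, SRSF2, SRSF3, SRSF6, SRSF7, SRSF8, SRSF10, SRSF11, HNRNPA1L3, HNRNPDL, HNRNPH2, HNRNPH3 and HNRNPM. Every other tested member missed a lower call in at least 1 of them. The same count was not taken over all genes, so whether 13 of 34 is unusual in these data was not tested. Of all 17539 tested genes, 27.6% were lower in the unadjusted fit with all libraries. In both that fit and the adjusted one, 2585 were lower. The 16 ways reuse the same libraries and are not independent. The limits given above for SRSF1, SRSF2 and HNRNPA1L3 hold here too. Of the 75-base windows of HNRNPH2, 13.5% lie also in the read-through gene RPL36A-HNRNPH2. For SRSF6 4.33% and for SRSF8 1.16% lie also in other genes. Exons of HNRNPH3 overlap those of RUFY2, and exons of HNRNPM those of AC136469.2, with the use of strand not known.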

How the data were processed

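RNA from DU145 cells was sequenced as single reads of 75 bases, per the labels' protocols. The deposited files hold unnormalized whole-number counts for each gene. According to the submitters' processing notes, TopHat2 2.0.10 and HTSeq 0.6.0 were used with hg38; annotation release and use of strand: not given in the sources used here. Tallies of reads in no gene stayed out of library sizes. Reads in no feature were 6.12% to 6.53% of gene counts and tallies together in each library.

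Members and lists were chosen with earlier results of these data known. Symbols came from a separate list of gene names, or from GENCODE release 29 where that list had none. Transcript length and GC content came from GENCODE release 29, which need not be the authors' release. Counts were tested in R 4.3.3 with edgeR 4.0.16 (filterByExpr, TMM, quasi-likelihood F-test, two-sided, BH adjustment over all tested genes, threshold 0.05), with 2 residual degrees of freedom and a biological coefficient of variation of 4.64%. The SE is the log2 fold change over the root of its F value. The GC and length offset was smoothed with mgcv 1.9.3 (basis dimension 8, genes with a mean log2 CPM above 2; 98.6% of tested genes had a GC value) and gave a coefficient of variation of 2.46%. Both fits were tested on simulated data, the adjusted one on counts with a made-up GC trend. The simulated counts had the same spread for every gene and library, and a linear trend equal in both SPOP-F133V libraries. They therefore cannot show how the fits do where replicates differ as they do here. Values in each library are given, by a fixed rule, for the 4 largest called falls and rises in each family, the 2 highest genes per kilobase and up to 4 genes that turn between fits, and every other tested member is named. From each list up to 3 called genes of lowest adjusted p are named, of which 1 is not reported here; UPF1 was chosen after its values were seen. Alternatives were DESeq2 1.42.0, other scalings, no filter, a replicate block and leaving out each library.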

Additional observations from a re-analysis of the deposited data

How the results depend on the processing

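The call of 25 members lower ranged from 17 to 27 over all alternatives. The number called higher moved from 0 to 11 with the GC and length offset and with the replicate block and that offset, 4 under upper-quartile scaling and 1 with no filter, and ranged from 0 to 11 without 1 library. Upper-quartile scaling moved the median of all genes to 0.13 and the split of calls from 4763 higher and 4841 lower to 6462 and 3831. All genes called ranged from 6337 to 10856 without 1 library, with 6384 without wild-type replicate 1 and 6337 without wild-type replicate 2. With a replicate block 9365 genes and 24 members lower were called, HNRNPF losing its call. Deviations of same-numbered libraries had a correlation of -0.05 over 11788 genes. The labels give these libraries a shared number and no batch, and whether they share a culture or batch was not tested.

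Log2 fold changes reversed by the offset (in parentheses, with the replicate block too) were HNRNPR 0.14 (0.14), HNRNPA3 0.091 (0.091), HNRNPU 0.16 (0.16), HNRNPA1 0.022 (0.022), HNRNPD 0.45 (0.44), HNRNPK 0.12 (0.12), HNRNPA0 0.36 (0.36), HNRNPLL 0.47 (0.47), HNRNPUL1 -0.19 (-0.19), HNRNPUL2 -0.066 (-0.066), HNRNPL -0.030 (-0.030), SRSF12 0.53 (0.53), RBMX 0.030 (0.030), SNRPD1 0.11 (0.11), SNRPA1 0.15 (0.15). Under upper-quartile scaling HNRNPLL gave 0.022 and SRSF12 0.060. Without 1 library, with and without the offset, the values ran over HNRNPA0 -0.17 to 0.42, HNRNPA1 -0.29 to 0.050, HNRNPA3 -0.65 to 0.13, HNRNPD -0.27 to 0.54, HNRNPK -0.23 to 0.14, HNRNPL -0.081 to 0.067, HNRNPLL -0.16 to 0.50, HNRNPR -0.70 to 0.14, HNRNPU -0.62 to 0.17, HNRNPUL1 -0.22 to 0.040, HNRNPUL2 -0.13 to 0.028, RBMX -0.59 to 0.055, SNRPA1 -0.32 to 0.21, SNRPD1 -0.44 to 0.16, SRSF12 -0.19 to 0.57, SRSF9 -0.00098 to 0.41. The cause was not tested. With 1 library left in a group, it is assumed to vary like the other group, which the replicates here did not (chi-square per degree of freedom 8.3 in SPOP-F133V, 1.69 in wild-type): fits without a SPOP-F133V library take their spread from wild-type alone. Counts per gene limit these results to whole genes.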

Other observations

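HNRNPA1P33, a pseudogene row related to HNRNPA1 and outside the member rule, chosen after its values were seen, had 0.490 and 0.510 CPM in SPOP-F133V and 1.66 and 1.85 CPM in wild-type. Both SPOP-F133V libraries were lower, at a log2 fold change of -1.80 (edgeR BH-adjusted p = 3.39e-06) and -1.90 after GC adjustment. A gene on the other strand that overlaps SRSF1 (ENSG00000279069.1) had 38 and 34 reads in SPOP-F133V and 70 and 62 in wild-type, and without knowledge of strand its reads and those of SRSF1 cannot be told apart.

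Among other splicing regulators, KHDRBS3 and NOVA2, both chosen after their values were seen, were the 2 called higher in both fits. KHDRBS3, a STAR family RNA-binding protein, gave 1.23 (1.88 adjusted) and NOVA2, known from neurons, 1.07 (0.92 adjusted). Both are of low level. KHDRBS3 had 66 and 63 reads in SPOP-F133V and 31 and 26 in wild-type, and NOVA2 68 and 55 against 34 and 27. Both lie below the level above which the GC trend was fitted, so their adjusted values rest on the trend of genes of higher level.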
